A study of Homo sapiens with 12 samples.

Results

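The genes described here are 10 markers of endothelial identity, picked by name as CDH5, PECAM1, ENG, KDR, FLT1, TEK, TIE1, ROBO4, ERG and SOX18, and all 10 were found among the 20117 genes of the table. They were read in 12 libraries of total RNA from 2 human lines, with 3 libraries labelled as biological replicates in each of 4 groups. EA.hy926 with LDL and EA.hy926 control are groups of a hybrid line made from umbilical vein endothelial cells (HUVEC) and the lung carcinoma line A549, kept in DMEM. THP-1 with LDL and THP-1 control are groups of a monocytic leukaemia line that the titles call PMA-induced macrophages and another label calls monocytes, kept in RPMI-1640. LDL was native low-density lipoprotein isolated from donors with cardiovascular disease (CVD), given at 100 µg/mL for 24 h, and the control dishes had the same medium without it. All 4 groups were without serum during those 24 h. Line and medium differed together and cannot be told apart, and in bulk RNA fewer cells of a type and less RNA per cell cannot be told apart either. The labels number biological replicates but do not say whether these were separate passages or days, so the p-values cover no more than the spread among these libraries, which may be technical.

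Endothelial cells line the vessels and are recognised by the proteins that join them to each other and by receptors for growth factors of the vessel wall. CDH5 (VE-cadherin) and PECAM1 hold neighbouring cells together. KDR and FLT1 are receptors of vascular endothelial growth factor (VEGF), TEK is the receptor of the angiopoietins and TIE1 is its close relative. ENG (endoglin) is a co-receptor of the TGF-beta and BMP family, and ROBO4 is a Roundabout family receptor of endothelium. ERG, an ETS family factor, and SOX18 are transcription factors of the endothelial lineage. Several of these genes are also known from blood cells: PECAM1 is made by monocytes and platelets, ENG by activated monocytes and macrophages, and FLT1 by monocytes.

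In brief, none of the 10 genes passed the adjusted p threshold with LDL in EA.hy926, where SOX18 came closest with a mean of 232 normalised counts with LDL and 391 in control. In THP-1, 5 of the 10 genes were listed at 0 throughout, and of the other 5, FLT1 and PECAM1 rose and TIE1 and ROBO4 fell with LDL, in a line where 64.5% of all genes tested passed. The rise of PECAM1 was not called with quantile normalization (limma adjusted p = 0.194). ROBO4 was tested in THP-1 through its control group only. The LDL effect differed between the lines for the 5 genes found in both, as it did for 47.1% of all genes tested, and for ENG this call was lost when any one of 8 of the 12 libraries was left out.

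The level of each gene is given in normalised counts, read counts divided by the authors' size factor for the library. The libraries held 4.32 M (EA.hy926 LDL replicate 2) to 11.0 M reads (THP-1 control replicate 2), so that 1 read was worth 0.653 to 1.91 normalised counts. The non-coding RNA RN7SL1 took 9.52% to 14.4% of the deposited total in EA.hy926 with LDL and 8.90% to 12.7% in EA.hy926 control, and 2.15% to 3.08% in THP-1 with LDL and 1.74% to 2.07% in THP-1 control. The label of an endothelial line was checked with 32 further endothelial markers, 29 of them in the table. Of these, 26 averaged at least 10 normalised counts in EA.hy926 control and 13 did in THP-1 control. Their summed level was 35502 to 39388 and 2461 to 2657 in those groups. The markers were picked with earlier results known, so these counts are only descriptive. For comparison, 13521 of all 20117 genes were at or above a mean of 10 among the EA.hy926 controls, and 14586 were among the THP-1 controls. In EA.hy926 control, 14 of 17 macrophage markers were listed at 0. Of 12 lung epithelial markers 8 were in the table, and 5 of these had a mean of at least 10. EPCAM, CDH1, NKX2-1 and SFTPB were not in the table. CD68, a general macrophage marker, was listed at 0 in all 6 THP-1 libraries, so a 0 in this table is given as a listed value and folds against such groups are left out.

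**Figure D1:**
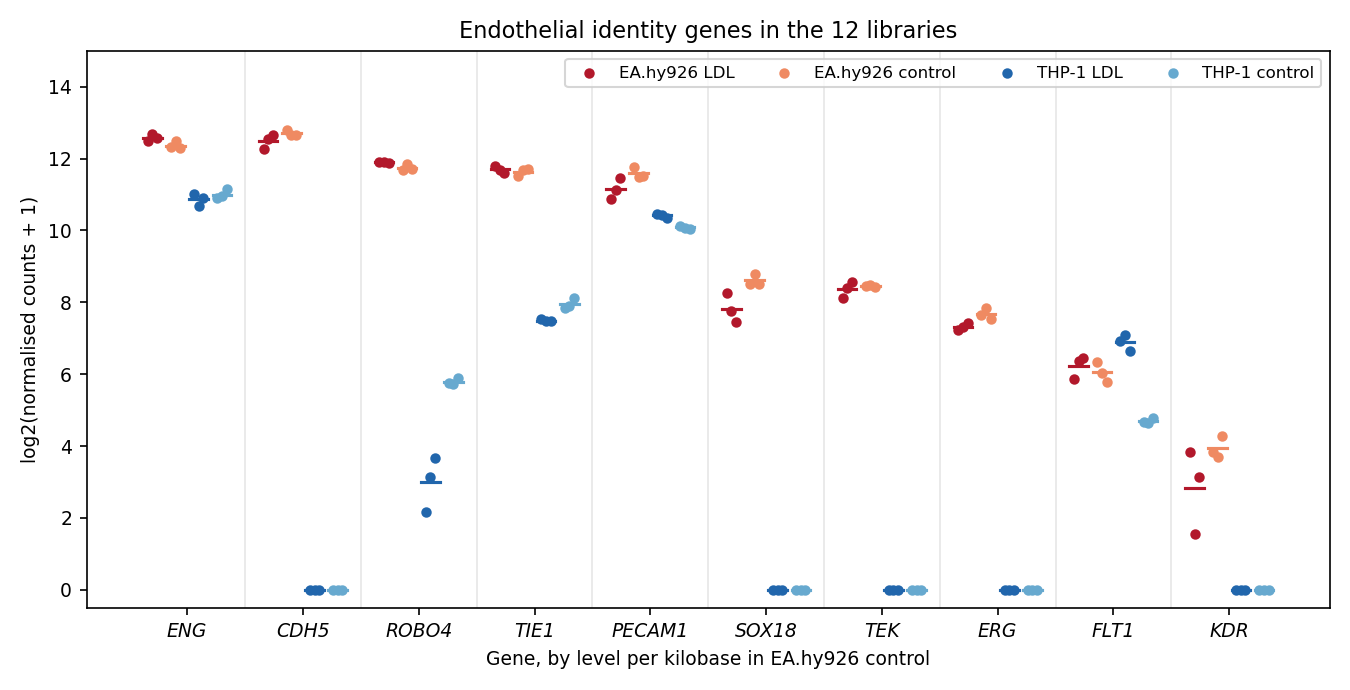
Level of the 10 endothelial identity genes in each of the 12 libraries, on the scale log2(normalised counts + 1), with genes ordered by level per kilobase in EA.hy926 control. Points are libraries and bars are group means; CDH5, SOX18, TEK, ERG and KDR lie at 0 in the 6 THP-1 libraries, and FLT1 is higher in THP-1 with LDL than in any EA.hy926 library.

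Levels of different genes were compared per kilobase of exon (union of exons in GENCODE 29, which may not be the release the authors counted on). In EA.hy926 control the order was ENG at 1337 ± 102, CDH5 at 1096 ± 58.9, ROBO4 at 489 ± 30.7, TIE1 at 476 ± 35.6 and PECAM1 at 399 ± 43.1 normalised counts per kilobase (SD, n = 3). Below them came SOX18 at 209.9 ± 24.1, TEK at 72.6 ± 1.51, ERG at 26.9 ± 3.07, FLT1 at 5.30 ± 1.05 and KDR at 2.23 ± 0.526. The libraries of ROBO4 and TIE1 overlapped, as did those of TIE1 and PECAM1, while each other pair of neighbours in this order was apart. ENG stood above 98.6% of the 13521 genes averaging 10 or more in that group, and KDR, the main signalling receptor of VEGF, above 1.71%. In THP-1 control the order was ENG at 521 ± 48.9, PECAM1 at 139.7 ± 4.56, TIE1 at 37.1 ± 3.62, ROBO4 at 7.73 ± 0.495 and FLT1 at 1.99 ± 0.0937 per kilobase, and no neighbours overlapped. With LDL the last places in THP-1 changed, with FLT1 at 9.44 ± 1.45 and ROBO4 at 1.09 ± 0.583.

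Between the untreated lines, the 5 genes found in both were higher in EA.hy926 control in every library, as a description with no test. The log2 ratio of the group means of normalised counts was 5.98 for ROBO4, 3.68 for TIE1, 1.52 for PECAM1, 1.42 for FLT1 and 1.36 for ENG, and with TMM CPM it was 6.01, 3.71, 1.54, 1.45 and 1.39. Among these 5, ROBO4 had the highest ratio and TIE1 the next, while those of PECAM1, FLT1 and ENG lay close together. The 10 genes together took 0.249% to 0.274% of the deposited total in EA.hy926 with LDL, 0.277% to 0.291% in EA.hy926 control, 0.0367% to 0.0411% in THP-1 with LDL and 0.0463% to 0.0505% in THP-1 control.

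Promoter sequences are shown for the genes that moved in THP-1 and for their closest relatives that were listed at 0 there, so that FLT1 can be read beside KDR and TIE1 beside TEK. RefSeq sequences (build GRCh38.p14) were found for 7 of the 10 genes, and none was used for CDH5, PECAM1 and SOX18. Each line gives the 250 bases before the gene start of the RefSeq table, 5′ to 3′ on the strand of the gene, and capitals mark GGAA or its reverse complement TTCC, the core letters that ETS factors such as ERG bind. The windows are FLT1 at chr13:28495129-28495378 (minus strand), KDR at chr4:55125596-55125845 (minus strand), TIE1 at chr1:43300732-43300981 (plus strand), TEK at chr9:27108975-27109224 (plus strand) and ROBO4 at chr11:124897866-124898115 (minus strand). The RefSeq start is not always that of GENCODE 29, whose gene spans are given with each gene: the ROBO4 window lies wholly inside the GENCODE span, the TEK and FLT1 windows run into it at their 3′ ends, and those of KDR and TIE1 lie outside it.
FLT1: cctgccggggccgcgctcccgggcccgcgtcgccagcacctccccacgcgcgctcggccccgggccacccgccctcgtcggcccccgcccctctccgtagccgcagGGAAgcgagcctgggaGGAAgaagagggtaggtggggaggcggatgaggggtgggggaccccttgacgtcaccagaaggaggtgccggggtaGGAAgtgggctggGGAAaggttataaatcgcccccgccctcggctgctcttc
KDR: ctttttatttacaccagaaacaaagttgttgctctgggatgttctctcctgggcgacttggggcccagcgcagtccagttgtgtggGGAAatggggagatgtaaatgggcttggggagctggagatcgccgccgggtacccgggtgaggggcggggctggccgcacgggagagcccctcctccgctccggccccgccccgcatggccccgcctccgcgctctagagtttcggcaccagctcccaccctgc
TIE1: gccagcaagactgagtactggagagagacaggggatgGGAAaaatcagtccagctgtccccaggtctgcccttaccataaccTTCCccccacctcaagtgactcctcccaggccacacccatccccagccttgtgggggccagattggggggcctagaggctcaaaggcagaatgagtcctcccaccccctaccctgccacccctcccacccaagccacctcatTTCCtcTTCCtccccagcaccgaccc
TEK: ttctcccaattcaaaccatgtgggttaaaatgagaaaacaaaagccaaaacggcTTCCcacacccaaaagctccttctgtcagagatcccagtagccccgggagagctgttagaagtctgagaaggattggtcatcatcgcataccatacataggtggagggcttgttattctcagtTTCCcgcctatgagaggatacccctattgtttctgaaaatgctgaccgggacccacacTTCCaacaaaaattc
ROBO4: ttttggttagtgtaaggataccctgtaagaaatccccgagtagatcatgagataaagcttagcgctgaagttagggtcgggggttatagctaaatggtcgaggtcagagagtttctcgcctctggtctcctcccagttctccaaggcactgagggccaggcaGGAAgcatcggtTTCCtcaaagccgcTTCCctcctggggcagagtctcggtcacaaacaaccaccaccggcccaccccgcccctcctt

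GGAA was counted on both strands. FLT1 and TIE1 each held 4 copies, TEK, ROBO4 and ENG 3 each, and KDR and ERG 1 each. Among 35116 promoters of the same length 92.7% held at least 1 copy, the median was 3, and 34.3% held 4 or more. The longer AGGAAG, which contains GGAA, was found in 4 of the 7 windows, those of FLT1, ENG, TIE1 and ROBO4, against 28.7% of all promoters. CCGGAA, another extension of GGAA, was found in 0 of the 7 and in 14.5% of all promoters, and ACAAT, letters bound by SOX factors, in TEK alone and in 24.6% of all. FLT1 alone of the 7 held TATAAA, the letters of the TATA box, against 10.7% of all promoters. These matches are letters in a window and show no binding.

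The first comparison asked whether LDL moved endothelial identity genes in the endothelial line. All 10 genes were tested, since each averaged 10 normalised counts or more with LDL or in control, KDR in its control group only. In limma 0 of them passed an adjusted p of 0.05, against 2.01% of the 14202 genes tested (0.873% higher and 1.13% lower with LDL). At an unadjusted p under 0.05 there were 3 of the 10, SOX18, PECAM1 and ERG, all lower with LDL, and 1583 of the 14202 genes tested. With edgeR and with DESeq2 on recovered reads 1 of the 10, SOX18, passed, where 294 and 336 of the 14202 genes tested did. The median log2 fold change of the 10 was -0.15, against 0.00130 over all genes tested. Libraries with LDL did not overlap control libraries for 5 of the 10 genes (SOX18, PECAM1 and ERG lower, ENG and ROBO4 higher), and for 16.4% of all genes tested (8.15% higher and 8.25% lower).

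The junction genes were among the highest of the set. CDH5 (ENSG00000179776.19, chromosome 16, 66366622 to 66404786, plus strand, build GRCh38), the adhesion molecule of endothelial adherens junctions, had 4933, 5965 and 6486 normalised counts in EA.hy926 with LDL, against 7079, 6419.5 and 6505 in EA.hy926 control. Replicate 3 with LDL lay within the control range and the other two lay below it. The log2 fold change was -0.21 ± 0.12 (SE; limma adjusted p = 0.567), with a 95% confidence interval of -0.48 to 0.057.

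PECAM1 (ENSG00000261371.6, chromosome 17, 64319415 to 64413776, minus strand), a homophilic adhesion molecule of endothelial and blood cells, had 1875, 2242 and 2820.5 normalised counts in EA.hy926 with LDL, against 3482, 2867 and 2945 in EA.hy926 control. The groups did not overlap, but the highest LDL library lay just under the lowest control library. The log2 fold change was -0.44 ± 0.14 (limma adjusted p = 0.229). Without LDL replicate 3 it was -0.59 and passed (adjusted p = 0.0174). LDL replicate 3 and control replicate 1 had the highest PECAM1 of their groups, and they also had the highest RN7SL1 shares of their groups, 14.4% and 12.7%. With the deviation of RN7SL1 as a covariate, chosen after the values were seen, PECAM1 passed (adjusted p = 0.00498).

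The VEGF receptors were the lowest of the set. KDR (ENSG00000128052.10, chromosome 4, 55078259 to 55125595, minus strand) had 13.2, 1.91 and 7.84 normalised counts in EA.hy926 with LDL, against 13.3, 12.1 and 18.6 in EA.hy926 control. These came from 10, 1 and 7 reads with LDL and 13, 11 and 16 reads in control, and the groups overlapped. The log2 fold change was -1.10 ± 0.51 (limma adjusted p = 0.457), with an interval of -2.22 to 0.013, so a change was not detectable at this depth. FLT1 (ENSG00000102755.12, chromosome 13, 28300344 to 28495145, minus strand), which binds VEGF-A and placental growth factor and is also made in a secreted form that a count per gene cannot tell apart, had 56.9, 82.1 and 86.2 with LDL and 80.6, 64.7 and 54.5 in control. The groups overlapped, with a log2 fold change of 0.17 ± 0.24 (limma adjusted p = 0.832) and an interval of -0.36 to 0.69.

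The angiopoietin receptor pair was close to even. TEK (ENSG00000120156.22, chromosome 9, 27109141 to 27230175, plus strand) had 275, 336 and 377 normalised counts in EA.hy926 with LDL, against 348, 356 and 342 in EA.hy926 control. Its LDL libraries lay on both sides of the control range, with a log2 fold change of -0.093 ± 0.13 (limma adjusted p = 0.832) and an interval of -0.39 to 0.20. TIE1 (ENSG00000066056.14, chromosome 1, 43300993 to 43323108, plus strand) had 3563, 3289 and 3117 with LDL and 2919.7, 3257 and 3380.05 in control, which overlapped, with a log2 fold change of 0.061 ± 0.10 (adjusted p = 0.863) and an interval of -0.16 to 0.29.

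ENG (ENSG00000106991.14, chromosome 9, 127815012 to 127854756, minus strand) had 5734, 6517 and 6111 normalised counts in EA.hy926 with LDL, against 5070.1, 5723 and 4988 in EA.hy926 control. The LDL libraries were all above the control libraries, the lowest by a small margin, and the log2 fold change was 0.22 ± 0.11 (limma adjusted p = 0.488). ROBO4 (ENSG00000154133.15, chromosome 11, 124883691 to 124898500, minus strand) had 3806, 3864 and 3741 with LDL, against 3300.2, 3686 and 3326 in control. It too was higher in all 3 LDL libraries, by 0.15 ± 0.098 on the log2 scale (adjusted p = 0.621), with an interval of -0.064 to 0.36. Both genes share exons with antisense genes of the opposite strand, and reads from such a pair cannot be told apart if counting ignored strand. The antisense gene at ENG, AL162586.1, had 122, 120.3 and 118 with LDL and 94.9, 93.2 and 126 in control. Of the antisense genes at ROBO4, AP003501.1 had 41.1, 36.3 and 33.6 with LDL and 13.3, 23.03 and 6.96 in control, and AP003501.2 had 22.5, 11.5 and 19.03 with LDL and 13.3, 9.87 and 15.1 in control.

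The lineage transcription factors were both lower in every LDL library. SOX18 (ENSG00000203883.7, chromosome 20, 64047582 to 64049641, minus strand) had 307, 214 and 176 normalised counts in EA.hy926 with LDL, against 364, 443 and 366 in EA.hy926 control. The log2 fold change was -0.78 ± 0.18 with an interval of -1.18 to -0.38, and the limma adjusted p of 0.0528 missed the threshold. Adjusted p was 0.0239 with edgeR and 0.00601 with DESeq2, and in limma 0.0362 with TMM scaling, 0.0377 with median-of-ratios scaling and 0.00289 without LDL replicate 1, the highest LDL library. It was 0.0799 with quantile normalization, 0.111 with a minimum mean of 50, 0.276 without the intensity trend and 0.0793 with all 12 libraries in one fit. Leaving out any of the other 5 libraries gave 0.0830 to 0.294, the highest of these without control replicate 2, so the call for SOX18 turned on the setting. ERG (ENSG00000157554.20, chromosome 21, 38380027 to 38661780, minus strand) had 148, 159 and 172 with LDL, against 199.9, 229 and 183 in control. Its groups did not overlap, and the log2 fold change was -0.35 ± 0.15 (limma adjusted p = 0.415), with an interval of -0.68 to -0.019.

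**Figure D2:**
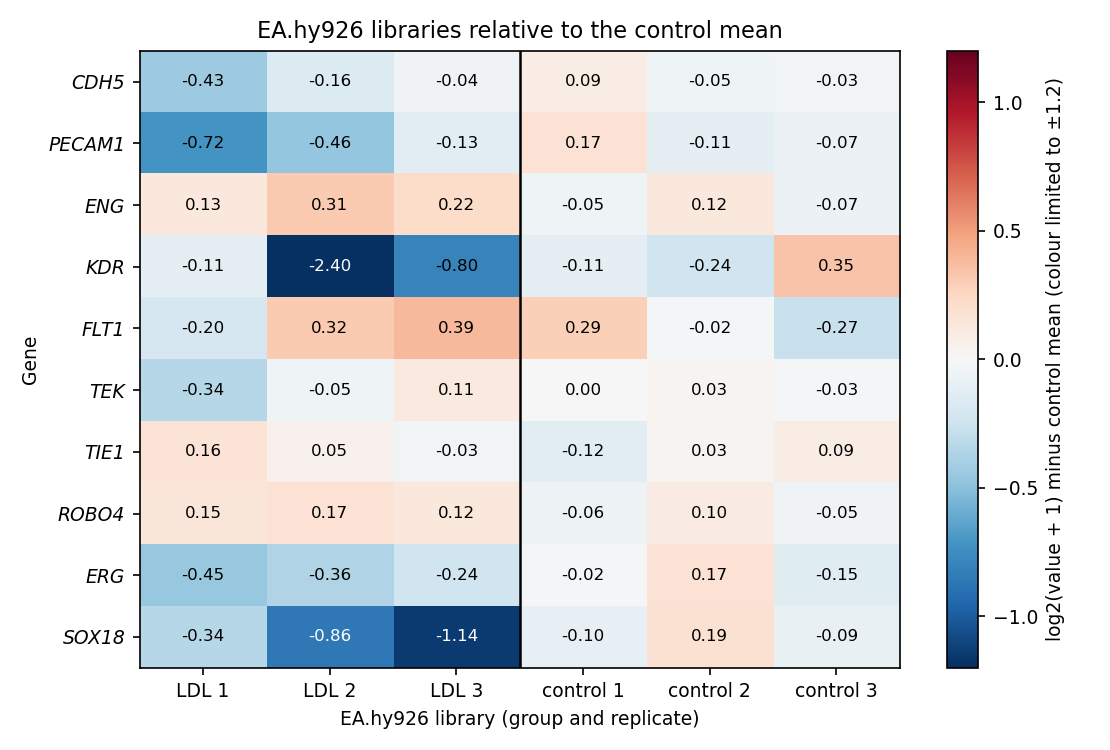
Deviation of each EA.hy926 library from the control mean on the scale log2(normalised counts + 1), for the 10 genes (rows) and 6 libraries (columns, LDL left of control). SOX18 reads -0.34, -0.86 and -1.14 and PECAM1 -0.72, -0.46 and -0.13 in LDL replicates 1, 2 and 3, so the library farthest from control is not the same for both.

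The LDL libraries of EA.hy926 did not move as one. Replicate 1 was the lowest LDL library for CDH5, PECAM1, TEK, ERG, FLT1 and ENG and the highest for SOX18, TIE1 and KDR. The coefficient of variation of SOX18 was 29.1% over the LDL libraries and 11.5% over control, that of CDH5 13.6% and 5.38%, and that of TEK 15.6% and 2.08%. ROBO4 went the other way, at 1.62% with LDL and 6.28% in control. The lung epithelial markers, listed for the A549 parent, summed to 13010.4 to 13185 normalised counts with LDL and 10273.5 to 11144.5 in EA.hy926 control. KRT7 and KRT18 had the largest parts, with means of 7136 and 4634 with LDL and 5457 and 4154 in control. Of the 5 lung epithelial markers tested, 0 passed in limma, and KRT19, ELF3 and AKR1C1 were listed at 0. The part of the shift of this sum in the values of the 10 genes was not tested. The macrophage markers summed to 744 to 979 with LDL and 649 to 810.0 in control, with CSF1R, CYBB and ITGAM at 0, and 0 of the 2 tested passed. These 2 were LAPTM5, with means of 798 with LDL and 690 in control, and LYZ, at 53.2 and 51.0, so the sum is mostly LAPTM5. Of the smooth muscle and fibroblast markers 9 of 10 were listed at 0 with LDL and in control.

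The genes around these receptors were read from 9 lists. In EA.hy926, 1 of the 130 listed genes tested passed in limma, CLEC14A, lower with LDL; 27 passed an unadjusted p of 0.05, and edgeR called 1 and DESeq2 2. Over all genes tested 2.01% passed in limma, and 1583 of 14202 had an unadjusted p under 0.05. Of all 14202 genes tested edgeR called 294 and DESeq2 336. CLEC14A, a C-type lectin receptor of vessel sprouting, had 1235, 1178 and 1111 normalised counts with LDL, against 1512, 1701 and 1713 in control, with a log2 fold change of -0.48 ± 0.099 (limma adjusted p = 0.01998). This call was lost without LDL replicate 2 (0.150) or 3 (0.0509), without control replicate 2 (0.123) or 3 (0.117), with a minimum mean of 50 (0.0732), without the intensity trend (0.196) and with all 12 libraries in one fit (0.151). The median log2 fold change was -0.16 for the other endothelial markers, 0.051 for endothelial transcription factors, 0.12 for the VEGF receptor pathway and -0.21 for the angiopoietin and TIE pathway. It was -0.088 for the endoglin, ALK1 and BMP pathway, -0.11 for the partners of VE-cadherin and PECAM-1, 0.010 for the ROBO and SLIT pathway, 0.094 for Notch in endothelium and 0.086 for endothelial to mesenchymal transition.

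The second comparison asked what LDL did to the same genes in THP-1 macrophages. CDH5, KDR, TEK, ERG and SOX18 were listed at 0 in all 6 THP-1 libraries and were not tested. Of the 5 tested, 4 passed in limma, 2 higher and 2 lower with LDL, in a line where 64.5% of the 16167 genes tested passed, 35.5% higher and 29% lower. The split over all genes was 5743 higher and 4682 lower, and 4636 higher and 5728 lower with quantile normalization. The LDL and control libraries did not overlap for those 4 genes, nor for 68.9% of all genes tested (37.5% higher and 31.4% lower), so neither count stands apart from the background. The median log2 fold change over all genes was 0.076 with the deposited scaling and -0.082 with quantile normalization, and small effects have to be read against that shift.

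FLT1 moved most among the rises. It had 121, 135 and 99.2 normalised counts in THP-1 with LDL, against 24.4, 24.2 and 26.3 in THP-1 control. The LDL libraries were far above control and also above the 54.5 to 86.2 seen over the EA.hy926 libraries, which were not tested against them. The log2 fold change was 2.19 ± 0.18 (limma adjusted p = 2.6e-07), and the reads behind it numbered 276 with LDL and 93 in control.

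PECAM1 had 1416, 1390.2 and 1295 normalised counts in THP-1 with LDL, against 1123, 1073 and 1055 in THP-1 control. Every LDL library was above every control library, by 0.33 ± 0.064 on the log2 scale (limma adjusted p = 5.3e-04), a rise that was 0.095 and not called with quantile normalization (adjusted p = 0.194). ENG had 2052, 1654 and 1916 with LDL, against 1897, 1986 and 2266 in control. Its groups overlapped, with a log2 fold change of -0.13 ± 0.088 (limma adjusted p = 0.208) and an interval of -0.32 to 0.060. With quantile normalization ENG was -0.44 and passed (adjusted p = 5.99e-04), and it also passed with TMM scaling (0.0399) and edgeR (0.0348). Its antisense neighbour AL162586.1 had 56.7, 94.6 and 86.03 with LDL and 47.9, 41.8 and 47.9 in control.

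ROBO4 had 3.47, 7.88 and 11.7 normalised counts in THP-1 with LDL, against 53.1, 51.6 and 58.3 in THP-1 control. It passed the filter through its control group only, and the LDL values came from 3, 6 and 8 reads, so the size of the fall is known poorly. The log2 fold change was -2.80 ± 0.35 (limma adjusted p = 1.4e-05), with an interval of -3.56 to -2.04. The antisense genes AP003501.1 and AP003501.2 were listed at 0 in THP-1, in LDL and control libraries alike. TIE1 had 185, 176 and 176 with LDL, against 229, 239.8 and 275 in control. All LDL libraries were lower, with a log2 fold change of -0.46 ± 0.10 (limma adjusted p = 0.00154).

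**Figure D3:**
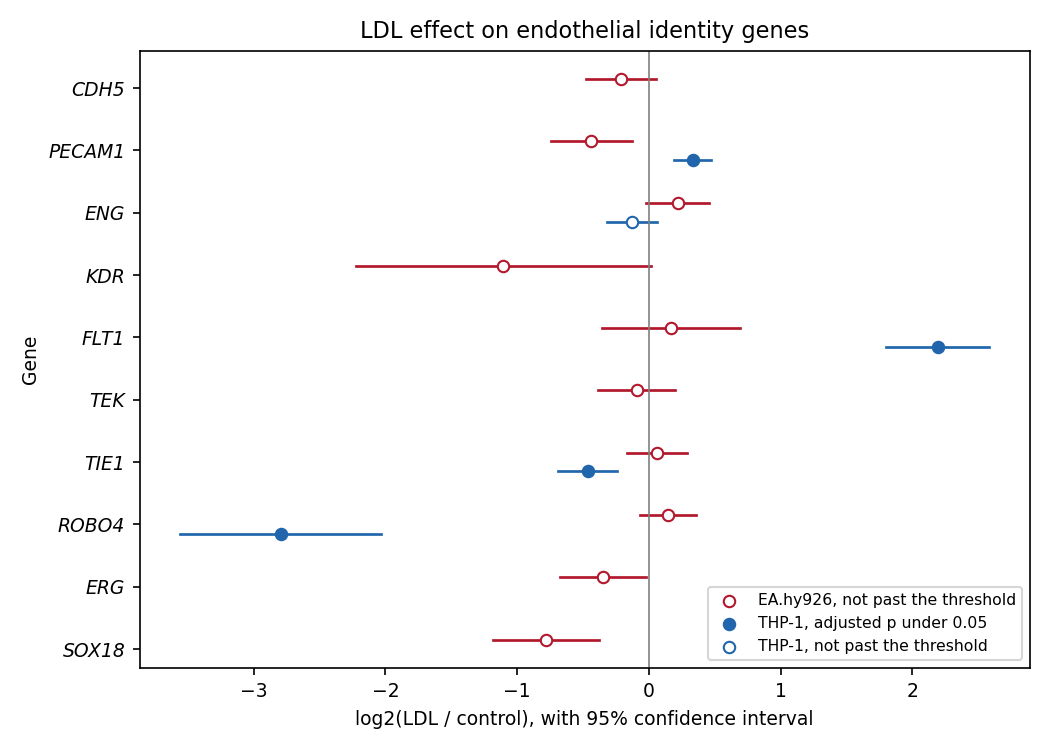
Log2 fold change of LDL over control in EA.hy926 (red) and THP-1 (blue) for the 10 genes, with 95% confidence intervals from limma; filled points passed an adjusted p of 0.05. No EA.hy926 point is filled, and in THP-1 FLT1 (2.19) and PECAM1 (0.33) lie right of 0 while TIE1 (-0.46) and ROBO4 (-2.80) lie left of it.

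Other measures moved with LDL in THP-1 as well. The mitochondrially encoded genes took 0.0407% to 0.0561% of the total with LDL and 0.117% to 0.136% in control, and the macrophage markers summed to 50205 to 54125 with LDL and 36730.4 to 40220.6 in control. Of the 16 macrophage markers tested 6 were higher and 5 lower with LDL, and 4 higher and 10 lower with quantile normalization. For these and the marker counts below, the share over all 16167 genes tested in THP-1 was 64.5%, 35.5% higher and 29% lower. MS4A7, a membrane protein of macrophages, was at 1942 ± 94.8 with LDL and 595 ± 37.5 in control, and CD163, the haemoglobin scavenger receptor, at 971 ± 36.5 and 379 ± 9.93 (SD, n = 3). The 5 lower ones, named after their values were seen, were ITGAM, FCER1G, AIF1, C1QA and MRC1, with log2 fold changes of -0.96, -0.63, -0.88, -1.87 and -4.42. ITGAM, an integrin chain of myeloid cells, was at 2497 ± 90.2 with LDL and 4876 ± 179.9 in control, and MRC1, the mannose receptor, at 0.486 ± 0.842 and 28.05 ± 3.98. C1QA and MRC1 were tested through their control group only. Of the smooth muscle and fibroblast markers 3 of 5 tested were higher and 0 lower, among them PDGFRA at 177 ± 13.6 with LDL and 81.3 ± 12.4 in control and MYH11, tested through its LDL group only, at 31.2 ± 11.3 and 6.17 ± 3.90. Of the lung epithelial markers 1 of 2 tested was higher, MUC1, at 79.9 ± 11.2 with LDL and 23.4 ± 3.38 in control, and KRT7, KRT8 and KRT18 were listed at 0. The part of these shifts in the results for FLT1, PECAM1, TIE1 and ROBO4 was not tested.

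The third comparison asked whether the LDL effect differed between the lines. It covered genes averaging 10 normalised counts or more in a group of each line. On the THP-1 side ROBO4 met this filter through its control group only. The 5 endothelial identity genes that could be tested passed in limma, 3 with a higher and 2 with a lower effect in EA.hy926, where 47.1% of 12534 genes did (21.9% higher and 25.2% lower). The LDL effect in EA.hy926 minus that in THP-1 was 2.94 ± 0.33 for ROBO4 (SE; limma adjusted p = 9.1e-07) and -2.03 ± 0.30 for FLT1 (2.6e-05). It was -0.77 ± 0.17 for PECAM1 (limma adjusted p = 9.3e-04) and 0.52 ± 0.13 for TIE1 (0.00329). For ENG it was 0.35 ± 0.14 (limma adjusted p = 0.0476), and this call was lost without EA.hy926 control replicate 1 or 3, EA.hy926 LDL replicate 2 or 3, THP-1 control replicate 2 or 3, or THP-1 LDL replicate 2 or 3 (adjusted p 0.0584 to 0.144). It was also lost without the intensity trend (0.100).

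In THP-1 the genes around the endothelial receptors moved broadly. Of the 127 listed genes tested, 105 passed in limma (82.7%), 57 higher and 48 lower with LDL. Over all genes tested 64.5% passed, 35.5% higher and 29% lower. All lists were drawn up with earlier results of these data known, so their counts are a description. The counts include genes that reached a mean of 10 in the LDL or the control group only. NOTCH3, EFNB2, HEY2, SPRY1, BMP6 and MMRN2 are among these. Among the other endothelial markers 1 was higher and 7 lower of 14 (median log2 fold change -0.90), and none was tested for CLEC14A, which was listed at 0. CD93, a C-type lectin receptor of endothelium and myeloid cells, was at 149 ± 14.6 normalised counts with LDL and 684 ± 25.9 in control (log2 -2.19 ± 0.093; limma adjusted p = 4.2e-10). STAB1, a scavenger receptor of sinusoidal endothelium and macrophages, was at 248 ± 28.2 with LDL and 930.5 ± 48.8 in control.

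Endothelial transcription factors had 4 members higher and 10 lower of 18 in THP-1 (median -0.74). The ETS family factors went opposite ways: ETS2 was at 1395 ± 74.7 normalised counts with LDL and 286 ± 13.2 in control, and ETS1 at 965 ± 7.90 and 2434 ± 30.8 (log2 2.28 and -1.33; limma adjusted p = 2.7e-11 and 4.3e-10). In the VEGF receptor pathway 13 were higher and 4 lower of 19 (median 0.99). NRP2, a co-receptor that presents VEGF-C, was at 2040.0 ± 38.3 with LDL and 106 ± 8.88 in control, and DUSP5, a phosphatase of ERK, at 4636 ± 73.5 and 193 ± 12.2.

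The angiopoietin and TIE pathway had 2 members higher and 3 lower of 7 in THP-1 (median -0.25). DOK2, an adaptor that binds activated TEK, was at 93.6 ± 4.16 normalised counts with LDL and 428 ± 11.3 in control, and PIK3R1, a regulatory subunit of PI3-kinase, at 822 ± 12.1 and 1596 ± 78.5. In the endoglin, ALK1 and BMP pathway 10 were higher and 10 lower of 21 (median 0.17). ACVR2A, an activin and BMP type II receptor, was at 2235 ± 213 with LDL and 591 ± 17.1 in control, and SMAD7, an inhibitor of TGF-beta signalling, at 1702 ± 198 and 462 ± 20.9.

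Partners of VE-cadherin and PECAM-1 had 9 members higher and 7 lower of 18 in THP-1 (median 0.41). The kinase gene SRC was at 2637 ± 263 normalised counts with LDL and 43.9 ± 1.22 in control (log2 5.87 ± 0.091), while VCL, vinculin, was at 469 ± 29.1 and 2297 ± 43.5 (limma adjusted p = 3.8e-14 for SRC and 1.1e-11 for VCL). In EA.hy926 the same genes were at 4249 ± 443 with LDL and 3476 ± 300.4 in control for SRC and at 1867 ± 275 and 2294 ± 156 for VCL, and neither passed (limma adjusted p = 0.364 and 0.358).

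In the ROBO and SLIT pathway 5 were higher and 2 lower of 8 in THP-1 (median 0.49). ROBO1, a relative of ROBO4 with a wider tissue range, was at 1384 ± 60.3 normalised counts with LDL and 426 ± 16.7 in control, and was listed at 0 in EA.hy926. SRGAP2, a GTPase-activating protein that binds ROBO1, was at 2284 ± 122 and 969 ± 36.4. So in THP-1 ROBO4, tested through its control group only, fell while ROBO1 rose (log2 1.70 ± 0.068, limma adjusted p = 2.4e-10).

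Notch genes had 10 members higher and 3 lower of 15 in THP-1 (median 0.68). DLL4, a Notch ligand of endothelial tip cells, was at 1109 ± 171 normalised counts with LDL and 20.03 ± 6.03 in control (log2 5.76 ± 0.198; limma adjusted p = 5.5e-11), and JAG1, another ligand, at 1044 ± 31.1 and 382 ± 34.1. Genes of endothelial to mesenchymal transition had 4 higher and 3 lower of 12 (median -0.042), and 3 higher and 6 lower with quantile normalization. Among them VIM, vimentin, was at 16516 ± 572 with LDL and 8952 ± 274 in control, and S100A4, a calcium-binding protein, at 233 ± 26.6 and 1858 ± 127.

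**Figure D4:**
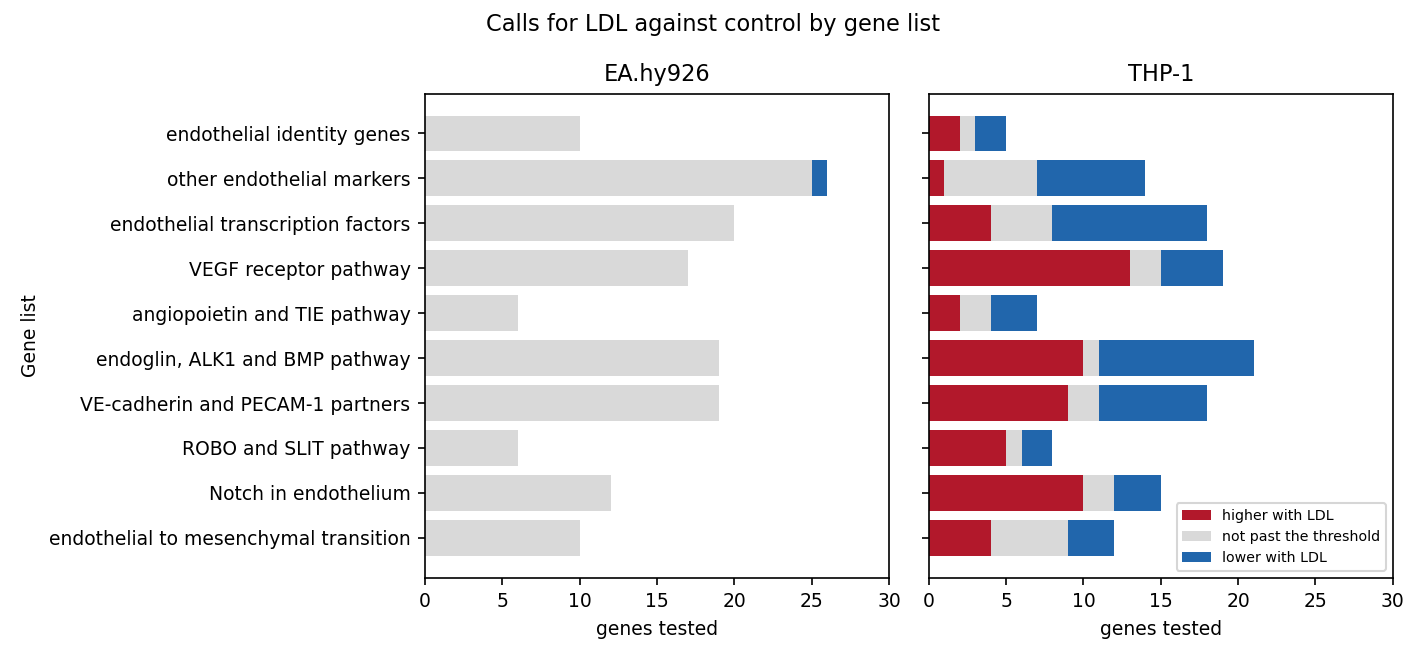
Number of genes tested per list in EA.hy926 (left) and THP-1 (right), split into genes higher with LDL, not past the threshold and lower with LDL (limma adjusted p of 0.05). In EA.hy926 1 gene of one list, the other endothelial markers, is lower, while most bars in THP-1 are filled by calls.

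The genes whose log2 profile lay closest to that of CDH5 over the 12 libraries were IGF2BP1, DAB2IP, PARD3B, PXDN and LAMA4, compared with 10302 genes averaging 50 normalised counts or more in EA.hy926 control. Pearson's r rounded to 1.00 for each of them. All 5 were listed at 0 in THP-1 like CDH5, as were 437 of the genes at that level, so most of the shared variation is the difference between the lines. LAMA4, a laminin chain of vessel basement membranes, had 4452, 5300.05 and 6317 normalised counts in EA.hy926 with LDL and 6799, 5593 and 6657 in control, the order of libraries with LDL being that of CDH5.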

How the data were processed

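Total RNA of 12 libraries was isolated with the SKYEasy kit and made into libraries with the VAHTS Universal V8 kit, per the labels' protocols. FastQC, MultiQC, STAR, HTSeq, DESeq2 and the build GRCh38 are named in the submitters' processing notes. Versions, annotation release, strand setting and filters were not stated in the labels or headers read here. The signal in the deposited table is a normalised count, a gene count that the authors divided by the size factor of its library. Every value above 0 was a whole multiple of 1 step per library (100% within 0.001), which gave whole reads. No molecular identifiers are named, so read numbers carry counting error and any duplication.

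Each line was fitted with limma 3.58.1 (R 4.3.3) on log2(value + 1), letting the prior variance follow mean level, and tests were two-sided. Genes whose mean was under 10 in both groups were left out. P-values were adjusted by Benjamini-Hochberg across every gene tested, with a threshold of 0.05. The difference between lines was an interaction in a fit of 12 libraries. Fold changes on this scale understate changes of low genes. edgeR 4.0.16 and DESeq2 1.42.0 were run on recovered reads, which for edgeR gave 294 genes in EA.hy926 and 10610 in THP-1. The limma and edgeR fits, but not DESeq2, were also run on counts simulated with a fixed dispersion, with results not given here. Symbols were matched by gene identifier for 20104 genes.

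The 10 genes and all gene lists were chosen with earlier results of these data known. Genes named beside the 10 were up to 4 per list in EA.hy926 and up to 2 in THP-1 with the smallest adjusted p past the threshold, and the 5 closest to CDH5. Genes outside this rule are said to be chosen after their values were seen, as were the antisense genes and RN7SL1.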

Additional observations from a re-analysis of the deposited data

Results flagged for a closer look

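For the 5 endothelial identity genes found in both lines the test of the difference between the lines passed the threshold, as it did for 47.1% of the 12534 genes tested. ROBO4 met the filter in THP-1 through its control group only. The values are the LDL effect in EA.hy926 minus the LDL effect in THP-1 on the log2 scale. It was 2.94 for ROBO4, which averaged 3803 normalised counts in EA.hy926 with LDL and 3437 in control, and 7.67 in THP-1 with LDL and 54.3 in control. It was -2.03 for FLT1, at 75.1 and 66.6 in EA.hy926 with LDL and control and at 119 and 24.96 in THP-1 with LDL and control. It was -0.77 for PECAM1, at 2313 and 3098 in EA.hy926 with LDL and control and at 1367 and 1084 in THP-1 with LDL and control. It was 0.52 for TIE1 and 0.35 for ENG, and the ENG call was lost when any one of 8 of the 12 libraries was left out. Groups of 3 are too small for a check of single outlying libraries.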

How the results depend on the processing

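In EA.hy926 the count of endothelial identity genes past the threshold was 0, and it was 1 with a pseudocount of 5, without a filter on low values, with TMM or median-of-ratios scaling, with edgeR and with DESeq2 (SOX18 each time), 2 with the RN7SL1 covariate added after the data were seen (SOX18 and PECAM1), and 0 to 1 when a library was left out. The cause was not tested. The 285 genes called in EA.hy926 became 466 without a filter, 45 with a minimum mean of 50, 473 with all 12 libraries in one fit and 512 with the RN7SL1 covariate. TIE1 in EA.hy926 reversed to -0.028 with quantile normalization and ranged from -2.8e-05 to 0.107 when a library was left out, and TEK ranged from -0.196 to 0.030; neither was called in any of these fits. In THP-1 FLT1, TIE1 and ROBO4 passed under each alternative run. There 5743 genes were higher and 4682 lower, and 4636 higher and 5728 lower with quantile normalization. Same-numbered LDL and control libraries did not deviate together (r of -0.52, 0.068 and -0.43 in EA.hy926, and of -0.14, -0.020 and 0.12 in THP-1). With 3 libraries per group this cannot exclude a pairing by number, which the labels do not state, and no pairing was used in the main fits. With a replicate block 231 genes passed in EA.hy926 and 10377 in THP-1, with 0 and 4 of the endothelial identity genes, and 4 of the 5 passed for the difference between lines (adjusted p was 0.0792 for ENG there, and in EA.hy926 0.180 for CLEC14A and 0.116 for SOX18). Of the 6 LDL libraries 1 correlated best with the control of its own number. Depth limits KDR in EA.hy926 and ROBO4 in THP-1 with LDL, at 18 and 17 reads over 3 libraries.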

Other observations

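Several endothelial genes of EA.hy926 outside the naming rule, chosen after their values were seen, had an unadjusted p under 0.05 without passing the adjustment. Over all genes tested 1583 of 14202 had an unadjusted p under 0.05. The shear-responsive factors KLF2 and KLF4 were at 2612 ± 677 and 444 ± 104 normalised counts with LDL and at 1834 ± 438 and 300.05 ± 77.04 in control (SD, n = 3; limma adjusted p = 0.362 and 0.328). VWF, the carrier of coagulation factor VIII, was at 506 ± 73.3 with LDL and 624 ± 73.3 in control (limma adjusted p = 0.418). LMO2, a nuclear adaptor of the blood and endothelial lineages, was at 271 ± 40.3 with LDL and 373 ± 12.5 in control (limma adjusted p = 0.146). GPR4, a proton-sensing receptor, was at 126 ± 5.15 with LDL and 81.3 ± 11.3 in control (limma adjusted p = 0.151). MMRN1, CD34, BCL6B and MMRN2 were also lower with LDL (log2 -0.69, -0.45, -0.35 and -0.21), and S1PR1 was higher (log2 0.28).

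Ligands of the VEGF and angiopoietin receptors above, chosen after their values were seen, were read in THP-1 as well. VEGFA was at 5661 ± 517 normalised counts with LDL and 1194 ± 65.4 in control, and VEGFC at 411 ± 29.97 and 24.4 ± 3.07 (limma adjusted p = 4.0e-11 and 6.9e-11). VEGFB went the other way, at 92.4 ± 5.26 with LDL and 150 ± 9.04 in control (limma adjusted p = 2.7e-04). PGF, which binds FLT1, was listed at 0 with LDL and stood at 11.3 ± 3.20 in control. ANGPT1, the agonist of TEK, was at 0.486 ± 0.842 with LDL and 13.02 ± 3.38 in control. PGF and ANGPT1 reached a mean of 10 in the control group only, at low values, and no p is given for them. The endothelial receptor S1PR1 was at 10.2 ± 2.55 with LDL and 108 ± 5.51 in control (limma adjusted p = 5.7e-08), and MMRN2, a matrix ligand of CLEC14A and CD93, at 4.75 ± 1.84 and 145 ± 14.4, which was tested through its control group only.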
